A study of Mus musculus with 2 samples.

Results

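Alveolar macrophages were taken as cluster 5 of the 23 clusters that the authors gave the lung cells, 2023 of 22963 cells. The cluster was read from the authors' annotation and no expression value was used to choose its cells. The study profiled whole lungs of mouse pups by droplet single-cell RNA sequencing (10x Genomics 3' kit) after an antibody against Hedgehog ligands. Lungs of 3 pups per condition were pooled into 1 library, so no difference below has a replicate check. The 5E1 group received the anti-Hedgehog antibody 5E1 under the skin at postnatal day 3, and the IgG group received control IgG on the same day. Pups of both groups were Gli1creERT2/+;R26RtdTom/+ and had tamoxifen at day 1, so both carried a Cre recombinase in place at 1 Gli1 allele and a tdTomato reporter that tamoxifen switches on in Gli1-expressing cells. Lungs were taken at day 6.

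Alveolar macrophages live on the inner surface of the air sacs, where they take up and break down surfactant, dead cells and particles. In mice they arise from fetal monocytes in the first days after birth under the cytokine GM-CSF and the transcription factor PPARγ, and then maintain themselves in the lung. Their lysosomes degrade what they engulf, and lipid transporters return the cholesterol of surfactant.

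Cluster 5 held 1004 cells with 3789132 unique molecular identifiers (UMIs, 1 per captured transcript) in the 5E1 library, against 1019 cells and 2760191 UMIs in the IgG library. A cell had a median of 3126.5 UMIs and 1340.5 genes in 5E1 and of 2313 UMIs and 1073 genes in IgG. The ratio of median depths was 1.35, above that of each of the other 22 clusters (0.8 to 1.33, median 1.04). The libraries shared 184 cell barcodes among all kept cells and 2 among cells of cluster 5. The pups also differed in sex. In the 5E1 library 252 cells of the cluster had a UMI of a Y-linked gene and 244 had Xist with no Y-linked UMI, while in the IgG library these were 1 and 842 cells. Depth and sex therefore move with the antibody, and their part in the results was not tested. Values from cells of 2000 to 4000 UMIs (490 in 5E1 and 438 in IgG) and from 5E1 cells with Xist and no Y-linked UMI are given below where they bear on a result.

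The label held against its markers. Its 4 marker genes were 11.0 to 43.1 times as high there as in the next cluster, and all were seen in both libraries. Ear1, an eosinophil-associated ribonuclease, was at 874 CPM (counts per 1000000 UMIs of the cluster in that library) in 5E1 and 735 CPM in IgG, and the next cluster averaged 71.6 CPM. Atp6v0d2, a subunit of the proton pump that acidifies lysosomes, was at 534 CPM in 5E1 and 385 CPM in IgG, 43.1 times the next cluster. Plet1, a surface protein, was at 1087 and 922 CPM, and Abcg1, which exports cholesterol, was at 690 and 611 CPM in 5E1 and IgG cells. The genes with the largest lead over the next cluster were Cidec, Acaa1b, Ang4, Ang5, Atp6v0d2, Ear10, Fabp1, Gpnmb, F7 and Abcg1. These levels describe the cluster, which the authors drew from the same cells. Ear and Ang genes are families of near-identical copies, and how shared reads were assigned is not given in the sources used here, so single members are uncertain.

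**Figure D1:**
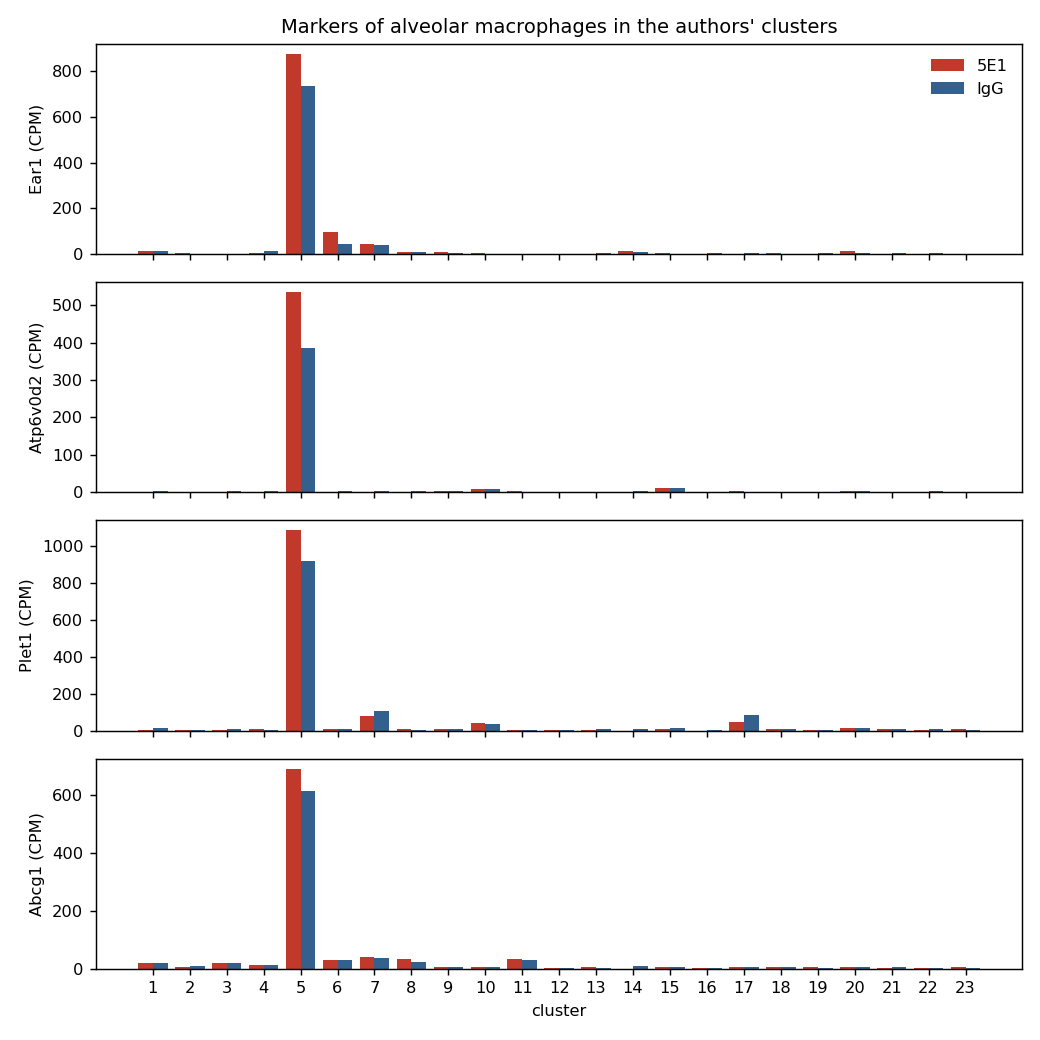
Level of 4 alveolar macrophage markers (CPM) in each of the 23 clusters, with 5E1 as red bars and IgG as blue bars. Cluster 5 stands above every other cluster for each gene in both libraries, for example Abcg1 at 690 CPM in 5E1 and 611 CPM in IgG against 38.2 CPM in the next cluster.

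Markers of other cells were present in the cluster at very different levels. Interstitial macrophage markers, 10 of 12 with at least 20 UMIs, summed to 73.4 CPM in 5E1 and 123 CPM in IgG, whereas C1qa alone averaged 6026 CPM in cluster 8. Monocyte markers, 8 of 10 measured, summed to 197 CPM in 5E1 and 245 CPM in IgG, and mesenchymal markers to 849 and 1180 CPM. Dendritic markers summed to 53.8 and 50.4 CPM in 5E1 and IgG, and Xcr1, Siglech and Itgae had no UMI. Neutrophil markers, 8 of 11 measured, summed to 913 CPM in 5E1 and 566 CPM in IgG, mostly S100a8, which averaged 122477 CPM in the neutrophil cluster 1. Airway markers, 5 of 7 measured, summed to 2318 CPM in 5E1 and 4301 CPM in IgG, erythroid genes to 1516 and 1002 CPM, and markers of alveolar type 2 cells to 1183 and 904 CPM. The alveolar macrophage markers summed to 8216 CPM in 5E1 and 7494 CPM in IgG. Free RNA in the droplets can give such levels, and its part was not tested. The reporter transcript was at 71.5 CPM in 5E1 and 97.5 CPM in IgG, against up to 1851 and 1738 CPM in the highest cluster of each library.

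Of all kept cells, cluster 5 made up 10.6% in 5E1 (1004 of 9454, exact 95% Clopper-Pearson interval 10.0 to 11.3%) and 7.54% in IgG (1019 of 13509, 7.1 to 8.0%). Of the 8 clusters that express Ptprc, the leukocyte marker CD45, at 50 CPM or more, it made up 30.2% in 5E1 and 25.8% in IgG. Genes that lead the cluster, among them Gpnmb and Fabp1, differed between the libraries by over 2-fold, so these shares are given as a composition and no difference is read from them. All intervals here and below cover counting error only and not the differences between pups.

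The first comparison asked which genes of alveolar macrophages differed after Hedgehog blockade. Over the 2 libraries 6108 genes reached 100 UMIs in the cluster. Of these, 127 (2.08%) were at least 1.5-fold higher in 5E1 and 122 (2.00%) at least 1.5-fold lower, and 25 (0.409%) and 26 (0.426%) passed 2-fold. Gpnmb and Cd63 of lysosome-related vesicles were among the highest, with Fabp5 and Cd36 of lipid uptake further down, and the lowest included the fatty acid binding protein Fabp1 and the elastase Mmp12. Leaving out genes that stay under 5% of their level in another cluster left 110 higher and 64 lower genes. Under that limit were 17 of the 127 higher and 58 of the 122 lower genes. The limit was set by choice, and the part of free RNA in these genes was not tested.

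**Figure D2:**
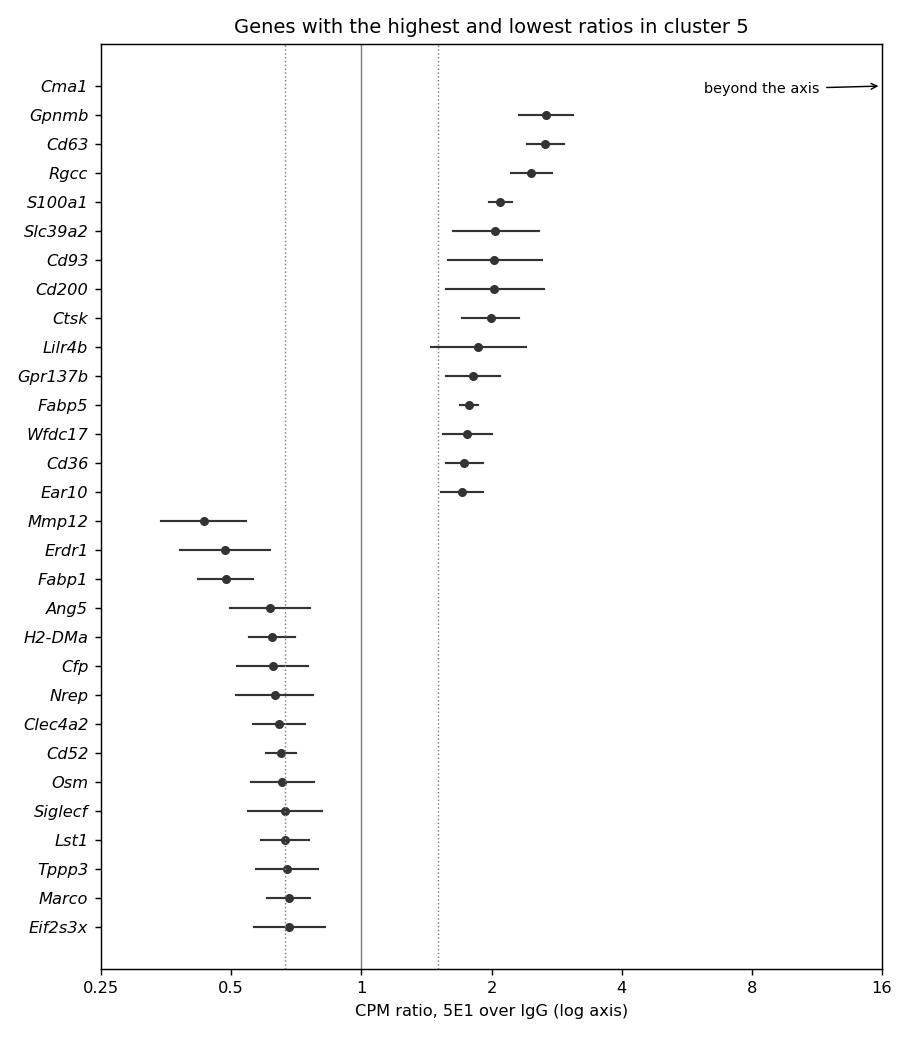
Ratio of CPM in cluster 5, 5E1 over IgG (log axis), for the top 15 and bottom 15 of 2485 ranked genes, with exact 95% intervals of the counting error. Dotted lines mark 1.5-fold. Gpnmb (2.67) and Cd63 (2.66) lead the genes spread over many cells, Cma1 lies beyond the axis, and Mmp12, Erdr1 and Fabp1 are the lowest.

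Gpnmb, a transmembrane glycoprotein of lysosomes and melanosomes that macrophages make on lipid or lysosomal load, was at 238 CPM in 5E1 (901 UMIs, interval 223 to 254) and 89.1 CPM in IgG (246 UMIs, 78.3 to 101). This is a ratio of 2.67 (2.31 to 3.08). The gene lies at chr6:49036546-49070929 on the plus strand (GRCm38, GENCODE vM21). After thinning every cell to 1000 UMIs, 13.2% of 997 cells in 5E1 and 5.81% of 981 cells in IgG had a Gpnmb UMI, against 0.235% of 426 cells and 0 of 375 cells in the B cell cluster 4, where a count of 0 allows up to 0.8%. Before thinning the shares were 33.3% in 5E1 and 13.2% in IgG. Among cells of 2000 to 4000 UMIs the log2 ratio was 1.09, and with Xist-positive 5E1 cells it was 1.90.

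Cd63, a tetraspanin of late endosomes and secreted vesicles (chr10:128900989-128912822, plus strand), was at 504 CPM in 5E1 (481 to 527) and 189 CPM in IgG (173 to 206). Its ratio was 2.66 (2.42 to 2.94), a log2 ratio of 1.41 that was 0.65 among cells of 2000 to 4000 UMIs and 1.90 with Xist-positive 5E1 cells. At 1000 UMIs, 21.5% of cells had a Cd63 UMI in 5E1 and 10.6% in IgG, against 2.35% and 4.27% of B cells. Cd63 was measured in all 22 other clusters, where its median log2 ratio was -0.06.

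Ctsd, the aspartic protease cathepsin D (chr7:142375911-142388038, minus strand), was among the most abundant transcripts of the cluster, at 4120 CPM in 5E1 and 2436 CPM in IgG. The ratio was 1.69 (1.64 to 1.74). Ctsk, the cysteine protease cathepsin K (chr3:95499256-95509362, plus strand), was at 172 CPM in 5E1 and 86.2 CPM in IgG, a ratio of 1.99 (1.71 to 2.32). Lgmn, the asparaginyl protease legumain, was at 219 CPM in 5E1 and 142 CPM in IgG. Ctsb, cathepsin B, was at 809 CPM in 5E1 and 532 CPM in IgG. These 4 proteases and Gpnmb and Cd63 were the members of the lysosome and protease list at least 1.5-fold higher in 5E1, 6 of 29 members measured with at least 20 UMIs. Among all 10166 genes with at least 20 UMIs, 5.31% were that much higher. Over the alternatives run, the lowest log2 ratios were 0.54 for Ctsd, 0.37 for Ctsb and 0.54 for Lgmn, each under 1.5-fold. That of Ctsk was 0.91, which is past 1.5-fold.

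The list as a whole leaned the same way. Like each list here, it was drawn up with earlier results of these data known. Its counts are therefore a description, and the shares of all genes beside them are no test. Of its 29 measured members 26 were higher in 5E1 and 3 lower, where 50.3% of all genes were higher and 49.7% lower, and none was 1.5-fold lower, where 6.54% of all genes were. The median log2 ratio was 0.32, against 0.00 over all genes. Psap, the precursor of the saposins that help lipid-degrading enzymes, was at 4366 CPM in 5E1 and 3057 CPM in IgG. Ctss, cathepsin S, was at 2426 and 1851 CPM, and Grn, progranulin, at 481 and 364 CPM in 5E1 and IgG. The membrane proteins Lamp1, at 778 and 641 CPM, and Cd68, at 386 and 316 CPM, differed by less than 1.5-fold. Ctsc, cathepsin C, was at 317 CPM in 5E1 and 320 CPM in IgG, so the lean did not include all cathepsins.

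The list was also compared within narrower sets of cells. Its median log2 ratio was 0.40 with Xist-positive 5E1 cells, with 28 of 29 members higher, and 0.32 with 5E1 cells holding a Y-linked UMI, with 26 of 29. Among cells of 2000 to 4000 UMIs the list was at 0.23 and all genes at 0.06, with 19 of 29 members higher. The 3 members past 1.5-fold there were Gpnmb, Cd63 and Ctsk. In the other 22 clusters the same list had medians of -0.23 to 0.33, with a median of 0.01. Cluster 8, where C1qa, C1qb, C1qc and Pf4 are highest, was the single cluster above the alveolar macrophages, at 0.33 with 26 of 28 members higher. List medians in cluster 8 ran from -1.12 (type I interferon genes) to 0.86 (glucocorticoid response genes). The transcription factor list was at 0.55 there, with 13 of 17 higher, so a lean upward was not particular to lysosome genes. Shares over all genes are not given here for clusters 6, 7 and 8. In that cluster Ctsd was at 929 CPM in 5E1 and 592 CPM in IgG, Cd63 at 756 and 532 CPM, and Gpnmb at 10.9 and 2.04 CPM. The monocyte cluster 6 had 15 of 28 members higher and a median of 0.01, and the dendritic cell cluster 7 had 6 of 26 higher and a median of -0.12.

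**Figure D3:**
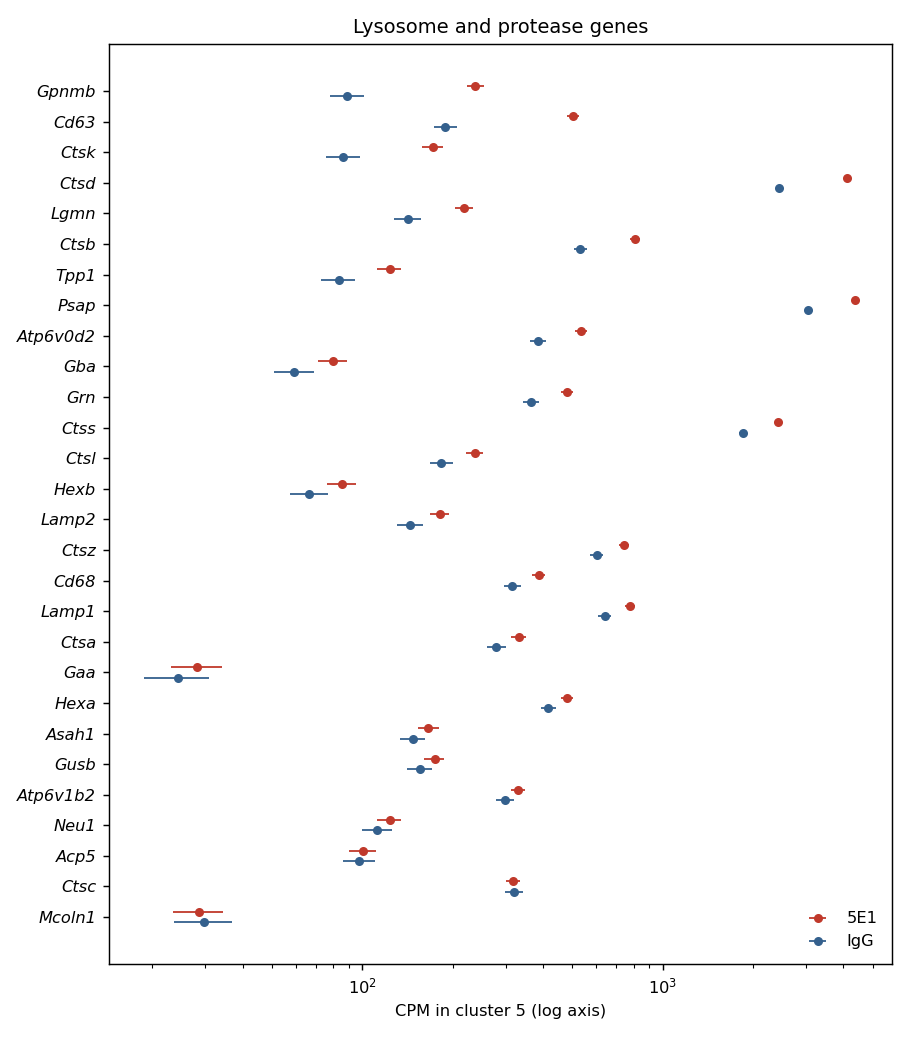
Level (CPM, log axis) of 28 lysosome and protease genes in cluster 5, with 5E1 in red above IgG in blue and exact 95% Poisson intervals. Genes run from the highest ratio (Gpnmb) to the lowest shown (Mcoln1), and 26 have the 5E1 point to the right.

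The difference was also present per cell. At 1000 UMIs per cell, the summed list had a median of 15 UMIs (quartiles 11 and 21) in 997 cells of 5E1 and of 12 UMIs (8 and 16) in 981 cells of IgG. Without Ctsd the medians were 12 and 10 UMIs. Ctsd alone had a median of 3 UMIs in 5E1 and 2 UMIs in IgG. The highest 5% of cells reached 36 UMIs or more in 5E1 and 23 or more in IgG, so the upper end of the distribution differed more than its centre. Cells under 1000 UMIs, 7 in 5E1 and 38 in IgG, were left out.

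**Figure D4:**
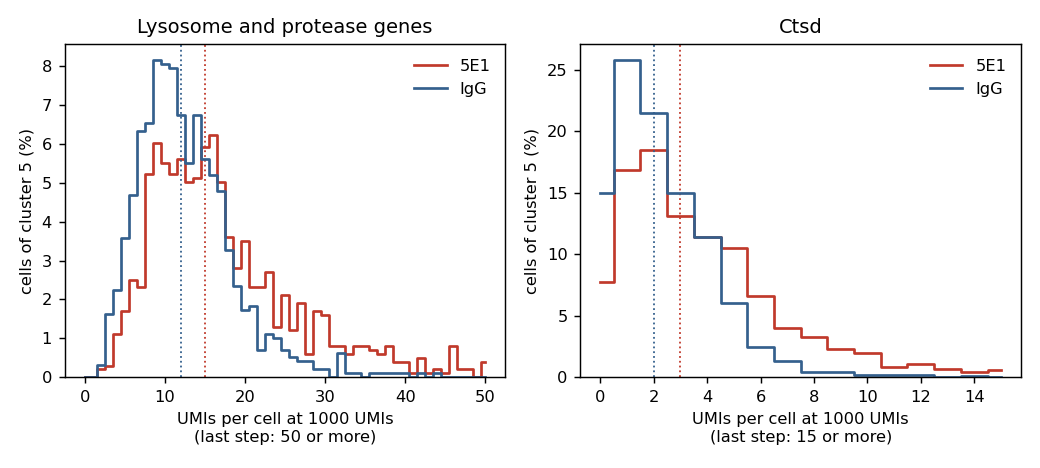
Distribution over cells of cluster 5 of the UMIs of the lysosome and protease list (left) and of Ctsd (right) after thinning each cell to 1000 UMIs, with 5E1 in red and IgG in blue and dotted lines at the medians. The 5E1 curve is moved to the right, with medians of 15 and 12 UMIs for the list and of 3 and 2 UMIs for Ctsd.

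Promoters of genes that encode lysosomal proteins often hold an E-box related element, which the transcription factors TFEB, TFE3 and MITF can bind. The windows below run from 250 bases before to 50 bases after the RefSeq start (GRCm38.p6) and are shown because they hold a motif searched for and their genes passed the 1.5-fold rule. The windows of Cd63 and Ctsk, which also passed it, held none of the motifs and are not shown. Ctsb passed it as well but had no RefSeq promoter entry, so it was not searched. Capitals mark TCACGTG on either strand in Ctsd (chr7:142387778-142388077, minus strand) and in Lgmn (chr12:102439043-102439342, minus strand, 1 of 2 RefSeq starts), and TGAGTCA, the letters of an AP-1 element, on either strand in Gpnmb (chr6:49036268-49036567, plus strand). For Lgmn the start with the most matches is shown, and it lies inside the gene. The window of its other start (chr12:102439679-102439978) spans the 5' end of the gene in GENCODE vM21 (102439813) and held none of the motifs.
Ctsd: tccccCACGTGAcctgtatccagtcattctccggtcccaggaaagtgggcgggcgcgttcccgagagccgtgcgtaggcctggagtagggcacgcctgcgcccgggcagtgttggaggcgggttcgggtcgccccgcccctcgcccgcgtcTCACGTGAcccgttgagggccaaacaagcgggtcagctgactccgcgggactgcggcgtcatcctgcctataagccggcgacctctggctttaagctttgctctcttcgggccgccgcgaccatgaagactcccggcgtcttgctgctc
Lgmn: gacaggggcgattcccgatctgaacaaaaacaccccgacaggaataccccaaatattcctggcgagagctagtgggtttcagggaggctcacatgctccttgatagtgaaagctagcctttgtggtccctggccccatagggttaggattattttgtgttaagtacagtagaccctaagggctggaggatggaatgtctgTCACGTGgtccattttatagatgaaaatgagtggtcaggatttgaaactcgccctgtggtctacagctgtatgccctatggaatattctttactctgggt
Gpnmb: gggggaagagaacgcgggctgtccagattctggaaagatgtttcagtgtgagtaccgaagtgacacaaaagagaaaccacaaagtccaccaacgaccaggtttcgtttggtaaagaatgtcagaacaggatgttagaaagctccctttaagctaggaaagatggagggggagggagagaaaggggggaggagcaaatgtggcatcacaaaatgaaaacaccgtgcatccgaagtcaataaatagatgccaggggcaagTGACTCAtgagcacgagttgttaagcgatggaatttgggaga
TCACGTG includes the shorter E-box CACGTG. Of the 30 listed genes 23 had a RefSeq promoter entry, and 6 of these (26.1%) held TCACGTG on either strand, against 3.77% of all 32851 promoters and 4.29% of all 27025 genes with an entry. The 6 genes were Ctsa, Ctsd, Lamp1, Lgmn, Gaa and Mcoln1, with log2 ratios of 0.25, 0.76, 0.28, 0.62, 0.21 and -0.06. TGAGTCA was in 4 of the 23 (17.4%), against 5.20% of all promoters and 5.95% of all genes with an entry. A gene counted if any of its starts held the motif. In the cholesterol synthesis list, whose genes were mostly lower over all cells, each of these 2 motifs was in 2 of 10 genes (20%). In the lipid handling list TCACGTG was in 2 of 17 (11.8%). The shorter CACGTG was in 7 of 23 genes (30.4%) of the lysosome list and 3 of 10 (30%) of the cholesterol synthesis list. It was in 3 of 17 (17.65%) of the lipid handling list and in 8.09% of all genes with an entry. Such matches are a description of the letters and not of binding. Tfeb was at 36.9 CPM in 5E1 and 40.6 CPM in IgG, Tfe3 at 27.4 and 29.0 CPM, Mitf at 20.3 and 21.0 CPM, and the related Tfec at 79.4 and 78.6 CPM.

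Genes of surfactant, cholesterol and lipid handling were the next group. Of 30 members, all measured, 22 were higher in 5E1, where 50.3% of all genes were, and the median log2 ratio was 0.16. Past 1.5-fold, 3 were higher and 1, Fabp1, lower, where 5.31% and 6.54% of all genes were. Fabp5, a fatty acid binding protein, was at 1431 CPM in 5E1 (1393 to 1470) and 808 CPM in IgG (774 to 842), a ratio of 1.77 (1.69 to 1.86). Cd36, a scavenger receptor for oxidized lipids, was at 371 CPM in 5E1 and 214 CPM in IgG, a ratio of 1.73 (1.57 to 1.91). Fabp4, another fatty acid binding protein, was at 98.7 CPM in 5E1 and 64.1 CPM in IgG, a ratio of 1.54. At their lowest over the alternatives run, the log2 ratios of Fabp5 and Fabp4 were 0.49 and 0.17, under the fold rule. That of Cd36 was 0.61. Fabp1, which marks alveolar macrophages in the lung, went the other way, at 81.5 CPM in 5E1 (72.7 to 91.2) and 168 CPM in IgG (153 to 184). It was 2.06-fold lower in 5E1 (1.78 to 2.39), a log2 ratio of -1.04. Over the alternatives run this ratio lay between -1.62 and -0.52, the latter under the fold rule.

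Among the other members, Plin2, the coat protein of lipid droplets, was at 1235 CPM in 5E1 and 955 CPM in IgG, under the fold rule. Lpl, lipoprotein lipase, was at 873 CPM in 5E1 and 869 CPM in IgG, and Cidec, which promotes droplet growth, at 89.7 and 107 CPM. The cholesterol exporters Abcg1 and Abca1 were at 690 and 44.9 CPM in 5E1 and at 611 and 34.8 CPM in IgG. The median of the list was between 0.11 and 0.20 under each alternative run, and 2 of the 22 other clusters were above it. Fabp5 had a median log2 ratio of -0.34 in the 21 other clusters that measured it and was higher in 5E1 in 3 of them.

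Genes of cholesterol synthesis were mostly lower in 5E1, 15 of 16 measured, 5 of them at least 1.5-fold, where 49.7% and 6.54% of all genes were, with a median log2 ratio of -0.33. Insig1, which holds back the regulator of these genes, was at 21.6 CPM in 5E1 and 36.6 CPM in IgG, and Fdft1, squalene synthase, at 15.6 and 26.8 CPM. Hmgcs1, an early enzyme of the pathway, was at 57.0 CPM in 5E1 and 60.5 CPM in IgG. This direction was not kept when depth was matched: the median of the list was 0.12 among cells of 2000 to 4000 UMIs, where all genes had 0.06, with 8 of 14 members higher. It was -0.13 after thinning to 1000 UMIs and -0.09 as the mean of the cells' own CPM. In the other clusters the list had a median of -0.48, lower than in alveolar macrophages.

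Cells with and without a Gpnmb UMI were compared within each library. At 1000 UMIs, 132 cells in 5E1 and 57 cells in IgG held a Gpnmb UMI, 99 and 53 of them a single one, so many cells lie near the boundary. Cd63 was at 803 CPM in Gpnmb-positive and 298 CPM in Gpnmb-negative cells of 5E1, and at 474 and 118 CPM in those of IgG. Fabp5 was at 2371 and 859 CPM in 5E1 and at 1316 and 566 CPM in IgG. Ctsd was at 5962 and 3407 CPM in 5E1 and at 3316 and 2222 CPM in IgG. S100a1, a calcium-binding protein, followed with 1917 and 720 CPM in 5E1 and 1035 and 439 CPM in IgG.

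Other genes were lower in Gpnmb-positive cells. Fabp1 was at 30.3 CPM in Gpnmb-positive and 125 CPM in Gpnmb-negative cells of 5E1, and at 70.2 and 177 CPM in those of IgG. The Gpnmb-positive values of Fabp1 rest on 4 UMIs in each library, and in IgG the intervals overlap (19.1 to 180 CPM and 151 to 207 CPM). Spp1, osteopontin, was at 129 and 403 CPM in 5E1 and at 175 and 376 CPM in IgG, and Car4, a carbonic anhydrase, at 98.5 and 224 CPM in 5E1 and at 87.7 and 251 CPM in IgG. Over the whole cluster Spp1 did not differ by more than the counting error, at 359 CPM in 5E1 and 362 CPM in IgG. Gpnmb-positive cells were deeper before thinning, with medians of 3845 UMIs in 5E1 and 3771 UMIs in IgG, against 3065 and 2323 UMIs in Gpnmb-negative cells. Positive and negative cells come from the same pooled library, and a cell without a UMI at this depth may still express the gene.

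The remaining genes of the upper end had mixed roles. S100a1 was at 1054 CPM in 5E1 and 503 CPM in IgG over the whole cluster, a ratio of 2.09 (1.97 to 2.23). Its log2 ratio of 1.07 fell to 0.49 at its lowest over the alternatives run, under the fold rule. Rgcc, a cell cycle regulator, was at 372 CPM in 5E1 and 150 CPM in IgG, a ratio of 2.47 (2.22 to 2.77). The log2 ratio of Rgcc was 0.66 among cells of 2000 to 4000 UMIs, against 1.31 over all cells. The zinc transporter Slc39a2 and the receptor Lilr4b, with log2 ratios of 1.02 and 0.89, were at 0.34 and 0.20 at matched depth. Cd93 and Cd200, surface proteins, had ratios of 2.03 each. The log2 ratio of Cd200 was 1.01, and 0.50 at its lowest over the alternatives run, under the fold rule. Cd93 was also higher in 5E1 in 10 of the 12 other clusters that measured it, with a median log2 ratio of 0.47, and averaged 686 CPM in cluster 11. The ratios of other genes were 1.81 for Gpr137b, a lysosomal membrane protein, 1.76 for Wfdc17, an antiprotease-like secreted protein, and 1.71 for Ear10. Cma1, a chymase of mast cells, had 201 UMIs in 7 cells of 5E1, 75.6% of them in 1 cell, and 1 UMI in IgG. Mast cell and basophil markers in the cluster summed to 22.7 CPM in 5E1 and 3.62 CPM in IgG, and their part in the Cma1 count was not tested.

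Among the lower genes, Mmp12, macrophage elastase (chr9:7344381-7369499, plus strand), was at 33.3 CPM in 5E1 (27.7 to 39.6) and 76.8 CPM in IgG (66.8 to 87.9). It was 2.31-fold lower in 5E1 (1.84 to 2.90), and it was confined to 31 cells in 5E1 and 44 cells in IgG, with 55.6% of the 5E1 UMIs and 53.8% of the IgG UMIs in 1 cell each. At matched depth its log2 ratio was -2.02, against -1.21 over all cells. Erdr1 was 2.07-fold lower in 5E1 but was lower in 5E1 in each of the 20 other clusters that measured it, with a median of -0.91. H2-DMa, which loads peptides onto MHC class II, was at 131 CPM in 5E1 and 210 CPM in IgG. Its log2 ratio was -0.69, -1.23 with Xist-positive 5E1 cells and -0.36 with 5E1 cells holding a Y-linked UMI, under the fold rule. Siglecf, a sialic acid receptor used to identify these cells, was at 53.3 CPM in 5E1 and 80.1 CPM in IgG, just past the fold rule. Cfp, properdin of the complement system, Clec4a2, a lectin receptor, Cd52, a surface glycoprotein, and the cytokine Osm were lower by 1.60, 1.55, 1.53 and 1.52-fold. The log2 ratio of Osm was -0.61, -1.59 with Xist-positive 5E1 cells and -0.25 among cells of 2000 to 4000 UMIs, under the fold rule. That of Siglecf was -0.59, and -0.31 with 5E1 cells holding a Y-linked UMI. Marco, a scavenger receptor, at 155 CPM in 5E1 and 229 CPM in IgG, stayed under the fold rule.

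**Figure D5:**
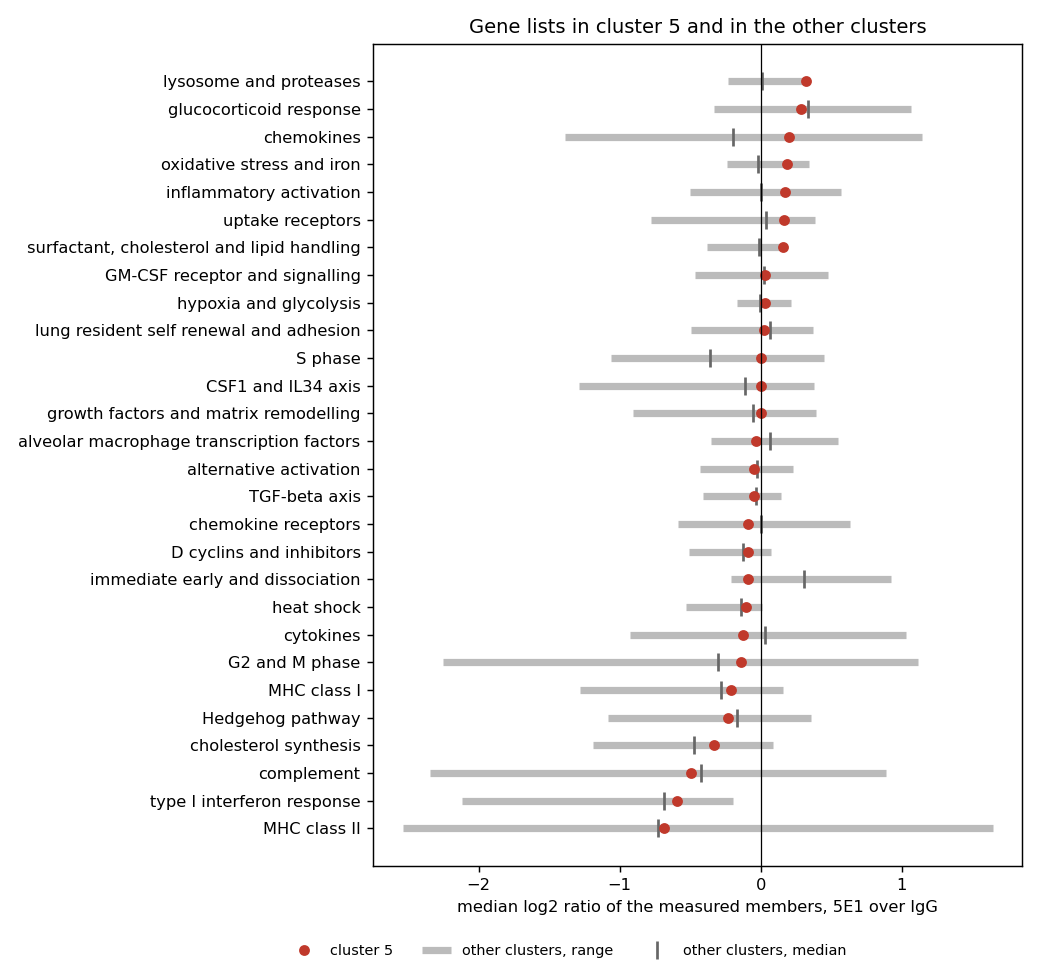
Median log2 ratio, 5E1 over IgG, of each gene list in cluster 5 (red points), with the range (grey bars) and median (ticks) of the other clusters with at least 5 measured members. Lysosome and protease genes are the highest list of cluster 5 at 0.32, immediate early genes at -0.09 lie below 21 of 22 other clusters but at 0.16 among cells of 2000 to 4000 UMIs and 0.04 after thinning, and MHC class II and type I interferon genes are the lowest lists.

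Genes that set the identity of alveolar macrophages differed in both directions. Of the 21 markers, 14 were higher and 7 lower in 5E1 with a median log2 ratio of 0.09, and those past 1.5-fold were Ear6, Ear10 and Ctsk above and Fabp1 and Siglecf below, 3 and 2 of 21, where 5.31% and 6.54% of all genes were. The GM-CSF receptor chains Csf2ra and Csf2rb were at 153 and 258 CPM in 5E1 and at 126 and 251 CPM in IgG, and the median of the 11 GM-CSF genes measured was 0.03. Pparg was at 74.4 CPM in 5E1 (66.0 to 83.6) and 77.2 CPM in IgG (67.2 to 88.3). Of 16 transcription factors, Bhlhe41, a repressor that supports self-renewal of alveolar macrophages in mice, was the single member past 1.5-fold, at 133 CPM in 5E1 and 84.1 CPM in IgG. Its log2 ratio was 0.66, and 0.45 at its lowest over the alternatives run, under the fold rule. Genes of the TGF-β axis had a median of -0.05, with Tgfb1 at 341 CPM in 5E1 and 355 CPM in IgG.

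Uptake receptors, iron and oxidative stress genes and chemokines are given beside the 50.3% of all genes that were higher in 5E1. Past 1.5-fold, 5.31% of all genes were higher and 6.54% lower. Of 28 uptake receptors 19 were higher, with a median log2 ratio of 0.17, Clec4e, Cd36 and Msr1 passed 1.5-fold upward and Siglecf downward. With 5E1 cells holding a Y-linked UMI, 14 of 27 were higher, with a median of 0.06. Clec4e, which senses damaged cells, was at 44.3 CPM in 5E1 and 19.6 CPM in IgG, and its level was 167 CPM in cluster 6. Of 20 iron and oxidative stress genes 14 were higher, with a median of 0.19 and none past 1.5-fold upward. The ferritin chains Ftl1 and Fth1 were at 18458 and 18120 CPM in 5E1 and at 14781 and 14268 CPM in IgG, and Hmox1, heme oxygenase, was at 103 and 72.1 CPM. Of 13 chemokines 8 were higher and 5 lower, 4 and 3 of them past 1.5-fold, with a median of 0.20 that was -0.02 without the cells with G2 and M phase genes. Of the 8 chemokines above 5% of their level in the highest cluster, 4 were higher and 4 lower. Past 1.5-fold these were 2 and 3, and the median was 0.12. Ccl6 was at 8041 CPM in 5E1 and 4972 CPM in IgG, a ratio of 1.62 (1.58 to 1.65). Its log2 ratio was 0.69, above the median of 0.39 in the other clusters that measured it. At its lowest over the alternatives run the log2 ratio of Ccl6 was 0.42, under the fold rule. Il18 was at 739 CPM in 5E1 and 696 CPM in IgG.

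Of 9 MHC class II genes 8 were lower in 5E1, where 49.7% of all genes were, with a median log2 ratio of -0.69. Of the 3 members above 5% of their level in the highest cluster 1 was higher and 2 were lower, with a median of -0.16. Cd74, the invariant chain, was at 62.8 CPM in 5E1 and 122 CPM in IgG, against 17554 CPM in cluster 7, and at 1000 UMIs 4.61% of alveolar macrophages in 5E1 and 5.71% in IgG had a UMI, against 96.5% and 97.6% of B cells. The log2 ratio of Cd74 was -0.96, and -1.64 among cells of 2000 to 4000 UMIs. Of 12 interferon genes 11 were lower, with a median of -0.59, and the other clusters had a median of -0.68. The median of MHC class II genes in the other clusters was -0.73. Complement genes had a median of -0.49, which was 0.03 for the 4 members above 5% of their level in the highest cluster.

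Immediate early genes, which rise during tissue digestion, had a median log2 ratio of -0.09 over 23 members, and 21 of 22 other clusters were above this value, with a median of 0.31. The direction was not kept: the median was 0.16 with 18 of 23 higher among cells of 2000 to 4000 UMIs, 0.04 after thinning to 1000 UMIs, 0.03 as the mean of the cells' own CPM and 0.01 with 5E1 cells holding a Y-linked UMI. Over all genes the medians of these runs were 0.06, 0.03, 0.03 and 0.02. Growth factor and matrix genes had a median of 0.00. Igf1, a growth factor, was at 23.2 CPM in 5E1 and 23.2 CPM in IgG, and had a median log2 ratio of -1.16 in the 17 other clusters that measured it. Transcripts of the Hedgehog pathway were scarce in alveolar macrophages, with 6 of 15 listed genes reaching 20 UMIs. Ptch1, the Hedgehog receptor, had 24 UMIs in 5E1 and 22 UMIs in IgG, a ratio of 0.795 (0.427 to 1.49), and Smo, the signal transducer, 13 and 9 UMIs. Hhip, a secreted inhibitor and target of the pathway, had 3 UMIs in 5E1 and 36 UMIs in IgG, and cluster 16 averaged 344 CPM. The share of the pathway's transcripts that is free RNA was not tested.

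Glucocorticoid response genes, 5 of 7 higher where 50.3% of all genes were, had a median log2 ratio of 0.28. This was the second highest after the lysosome list, against 0.33 in the other clusters. None of the 7 passed 1.5-fold, where 5.31% of all genes were that much higher and 6.54% lower. Inflammatory activation genes had a median of 0.17 over 15 members, hypoxia and glycolysis genes of 0.03 over 18, and adhesion genes of 0.02 over 14. Medians of the CSF1 axis and of S phase genes were 0.00 over 7 and 0.01 over 20 members. Alternative activation genes were at -0.05, chemokine receptors and D cyclins at -0.09, heat shock genes at -0.10 and cytokines at -0.12. MHC class I genes were at -0.21, with 7 of 10 members lower, where 49.7% of all genes were.

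Division was compared through genes of the G2 and M phases. At 1000 UMIs, 170 of 997 cells (17.1%, 14.8 to 19.5%) in 5E1 and 182 of 981 cells (18.6%, 16.2 to 21.1%) in IgG held at least 2 UMIs of the list, and before thinning the shares were 28.5% and 27.4%. The ratio of thinned shares was 0.919 (interval 0.741 to 1.14). In the monocyte cluster 6 the shares were 4.36% in 5E1 and 4.52% in IgG, and in B cells 8.45% and 6.67%. Another 136 cells in 5E1 and 160 in IgG held 1 UMI of the list. The median log2 ratio of the 23 genes was -0.14, with 17 lower, where 49.7% of all genes were. None passed 1.5-fold, where 5.31% of all genes were that much higher and 6.54% lower. The median was 0.12 with 5E1 cells holding a Y-linked UMI and -0.66 at matched depth. In cells with at least 2 such UMIs, Mki67 was at 312 CPM in 5E1 and 302 CPM in IgG. Ctsd was lower in those cells than in the rest, at 2729 and 3954 CPM in 5E1 and at 1852 and 2384 CPM in IgG.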

How the data were processed

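The libraries were made with a 10x Genomics 3' kit, and the authors deposited a UMI count per gene and cell with cluster numbers per cell; reads were processed with Cell Ranger 3.1.1 on mm10, per the submitters' processing notes. How reads shared by near-identical genes were assigned is not given in the sources used here. All 29004 deposited features were used, and the authors' cell filter was kept.

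Counts of cluster 5 were summed per library and scaled to 1000000 UMIs of the cluster (CPM), with exact 95% Poisson intervals. Ratios are 5E1 over IgG with an exact interval conditional on the sum of both counts, and log2 ratios add 0.5 UMI to each count. Genes needed 100 UMIs over the libraries, and members of gene lists 20 UMIs. With 1 library per condition there is no test of the antibody; a gene was called higher or lower from 1.5-fold. The named genes are the 15 highest and 15 lowest ratios among genes that reach 200 UMIs over the libraries and 50 CPM in either, leaving out genes under 5% of the highest cluster's level in both libraries, Xist, and mitochondrial, ribosomal protein, haemoglobin, immunoglobulin, predicted and Y-linked genes; members of the gene lists are named too. Of the lysosome and protease list, 1 measured gene is counted but not reported here by itself. Shares of cells were taken after randomly thinning each cell to 1000 UMIs, and have Clopper-Pearson intervals. No doublet caller was run. As an alternative, 73 cells in 5E1 and 101 in IgG with markers of other cell types were left out. Monocyte markers flagged 49 of these cells in 5E1 and 82 in IgG. The scripts were tested on simulated data. Python 3.11.15 was used with numpy 2.4.6, scipy 1.17.1, pandas 2.3.3 and matplotlib 3.10.9.

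The gene lists, the members and the alternatives were chosen with earlier results of these data known. Matching the depth to 2000 to 4000 UMIs, taking 5E1 cells with a Y-linked UMI, and the level of Ptprc that defines immune clusters were chosen after seeing the data.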

Additional observations from a re-analysis of the deposited data

How the results depend on the processing

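No paired analysis was possible because each condition has 1 library, and no replicate could be left out for the same reason. Under the alternatives run, 684 values of single genes and lists stayed within their spread and 125 moved. Single genes were followed through the alternatives for a chosen set only, not for all called genes. No gene of that set called at 1.5-fold changed direction. Some list medians did, among them those of cholesterol synthesis (-0.33, up to 0.12) and of G2 and M phase genes (-0.14, up to 0.12). Of the gene counts and cell shares, 40 values stayed and 41 moved, by over 1.5-fold for counts and beyond the interval for shares. The counts of genes come from different numbers of genes that reach the minimum. In place of 127 higher and 122 lower genes at 1.5-fold and 25 and 26 at 2-fold, all of 6108 genes, thinning to 1000 UMIs gave 59, 40, 5 and 6 of 2614 genes. Requiring at least 20 UMIs gave 540, 665, 145 and 198 of 10166, at least 1 UMI gave 2334, 2567, 1604 and 1731 of 15556, and at least 500 UMIs gave 26, 17, 5 and 3 of 1730. Cells of 2000 to 4000 UMIs gave 67 lower genes at 1.5-fold, and 6 higher and 9 lower at 2-fold. The lower genes at 2-fold numbered 17 with the mean of the cells' own CPM and 17 with 5E1 cells holding a Y-linked UMI. Without genes under 5% of their highest level, 64 were lower at 1.5-fold and 6 at 2-fold. Of the genes called over all cells, 22 higher and 26 lower ones were called again among cells of 2000 to 4000 UMIs, where 3333 genes had enough counts.

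The share of cluster 5 was 30.2% in 5E1 and 25.8% in IgG of immune cells, a ratio of 1.17 against 1.41 over all cells. Without neutrophils it was 35.0% and 27.6%, a ratio of 1.27, and without possible doublets 9.92% and 6.85%. The share of cells with G2 and M phase genes was 17.1% in 5E1 and 18.6% in IgG, a ratio of 0.919. Without thinning it was 28.5% in 5E1 and 27.4% in IgG, and at 2000 UMIs 22.6% and 30.5%. With at least 1 UMI of the list it was 30.7% and 34.9%, and with at least 3 UMIs 12.9% and 14.7%. Among cells of 2000 to 4000 UMIs it was 13.7% in 5E1, with a ratio of 0.681. The cause of these differences was not tested.

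Antibody, sex, depth, pup and library cannot be told apart in this design. Genes under 100 UMIs are not resolved here.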
